A study of Mus musculus with 12 samples.

Results

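Calcium and magnesium handling genes of the distal tubule were examined in kidney cortex on day 7 after unilateral ureteral obstruction (UUO), a surgical block of urine outflow on 1 side, and in the kidney of the opposite side (contralateral, CL). The genes were taken as a fixed list of 9 symbols (Calb1, S100g, Pvalb, Trpv5, Trpv6, Trpm6, Slc8a1, Atp2b1 and Casr) of the 23183 symbols in the files, and all 9 were among the 13243 genes that passed the filter on low values. Pvalb, Calb1 and S100g were already known to be among the largest falls from CL to UUO when the list was made. The members were thus selected on values of this contrast, which is given for the 9 genes as a description without p-values. Whether a member passed the threshold used for all genes (adjusted p under 0.05) is stated. In this contrast that is not independent support, since the values helped to choose the list. The animals were male C57BL/6N mice aged 6 to 7 weeks (strain C57BL/6 in the sample labels). Acot12+/+ CL, Acot12+/+ UUO, Acot12-/- CL and Acot12-/- UUO kidneys gave 3 libraries each and 12 in all. The Acot12-/- mice carried a germline mutation made with RNA-guided nucleases, present in every tissue and not in the kidney alone. All CL kidneys came from operated mice and no kidney of an unoperated mouse was analysed here. The labels do not say which kidneys came from the same mouse, nor that the replicates were separate animals, so the p-values measure the spread between these samples, which may be partly technical.

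As background, the distal convoluted tubule and the connecting tubule are where the kidney sets the final amount of calcium and magnesium in the urine. Calcium enters the cell from the urine through TRPV5, is carried across by calbindin-D28k and calbindin-D9k, and leaves on the blood side through the sodium-calcium exchanger NCX1 and the pump PMCA1. Magnesium enters through TRPM6 upstream in the distal convoluted tubule, where parvalbumin is also made, and the calcium-sensing receptor acts mainly in the thick ascending limb. Parathyroid hormone, active vitamin D, klotho and epidermal growth factor are known to act on these steps.

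The values are FPKM, counts of read pairs corrected for transcript length and for library depth, so levels of different genes can be compared per length. Low values fell on whole multiples of the worth of a single fragment. These steps put the depth used in the FPKM at 12300000 to 16300000 fragments in CL and 18050000 to 22860000 fragments in UUO libraries. Median-ratio size factors were 0.976 to 1.023 in the 12 libraries, while total FPKM ran from 0.689 to 1.37 of its mean. The values may thus already be normalised between libraries, and this depth may be a normalised size rather than the number of fragments sequenced. Acot12, the targeted gene, was 68.2 ± 13.6 FPKM (SD, n = 3) in Acot12+/+ CL and 8.32 ± 1.32 in Acot12-/- CL kidneys, and 15.98 ± 5.67 against 2.98 ± 1.06 in UUO kidneys. The genotypes did not overlap for Acot12 in either kidney, and its transcript was not absent from Acot12-/- libraries. Replicates correlated at a Pearson r of 0.942 to 0.992 over genes, and replicate 2 of Acot12-/- CL stood apart from all other libraries on the second principal component. Markers of the sampled tissue were present: Slc12a3, the thiazide-sensitive cotransporter of the distal convoluted tubule, was 79.3 to 126 FPKM in CL and 23.3 to 32.7 FPKM in UUO libraries.

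In CL kidneys the 9 genes spanned mean levels of 0.696 FPKM for Trpv6 to 14079 FPKM for S100g in Acot12+/+ mice. In Acot12+/+ CL the order by mean FPKM was S100g, Calb1, Pvalb, Slc8a1, Atp2b1, Casr, Trpv5, Trpm6 and Trpv6, and the only neighbours whose 3 libraries overlapped were Casr and Trpv5. In Acot12-/- CL the order was the same except that Trpv5 stood above Casr, and Slc8a1 overlapped Atp2b1 and Casr overlapped Trpm6. S100g alone held 1.56 to 1.65% of the total FPKM in Acot12+/+ CL libraries, where it ranked 3 or 4 of all genes, and 0.707 to 1.32% in Acot12-/- CL libraries. In Acot12+/+ UUO kidneys the order became S100g, Atp2b1, Calb1, Trpv5, Trpv6, Casr, Slc8a1, Trpm6 and Pvalb. Neighbours overlapped there for Atp2b1 with Calb1, Calb1 with Trpv5, Casr with Slc8a1 and Slc8a1 with Trpm6. In Acot12-/- UUO kidneys the first 3 were S100g, Calb1 and Atp2b1 and the last was again Pvalb, and the levels from Trpv5 to Casr ran into each other. S100g had moved to rank 236 to 270 in Acot12+/+ UUO and to rank 79 to 142 in Acot12-/- UUO libraries.

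**Figure D1:**
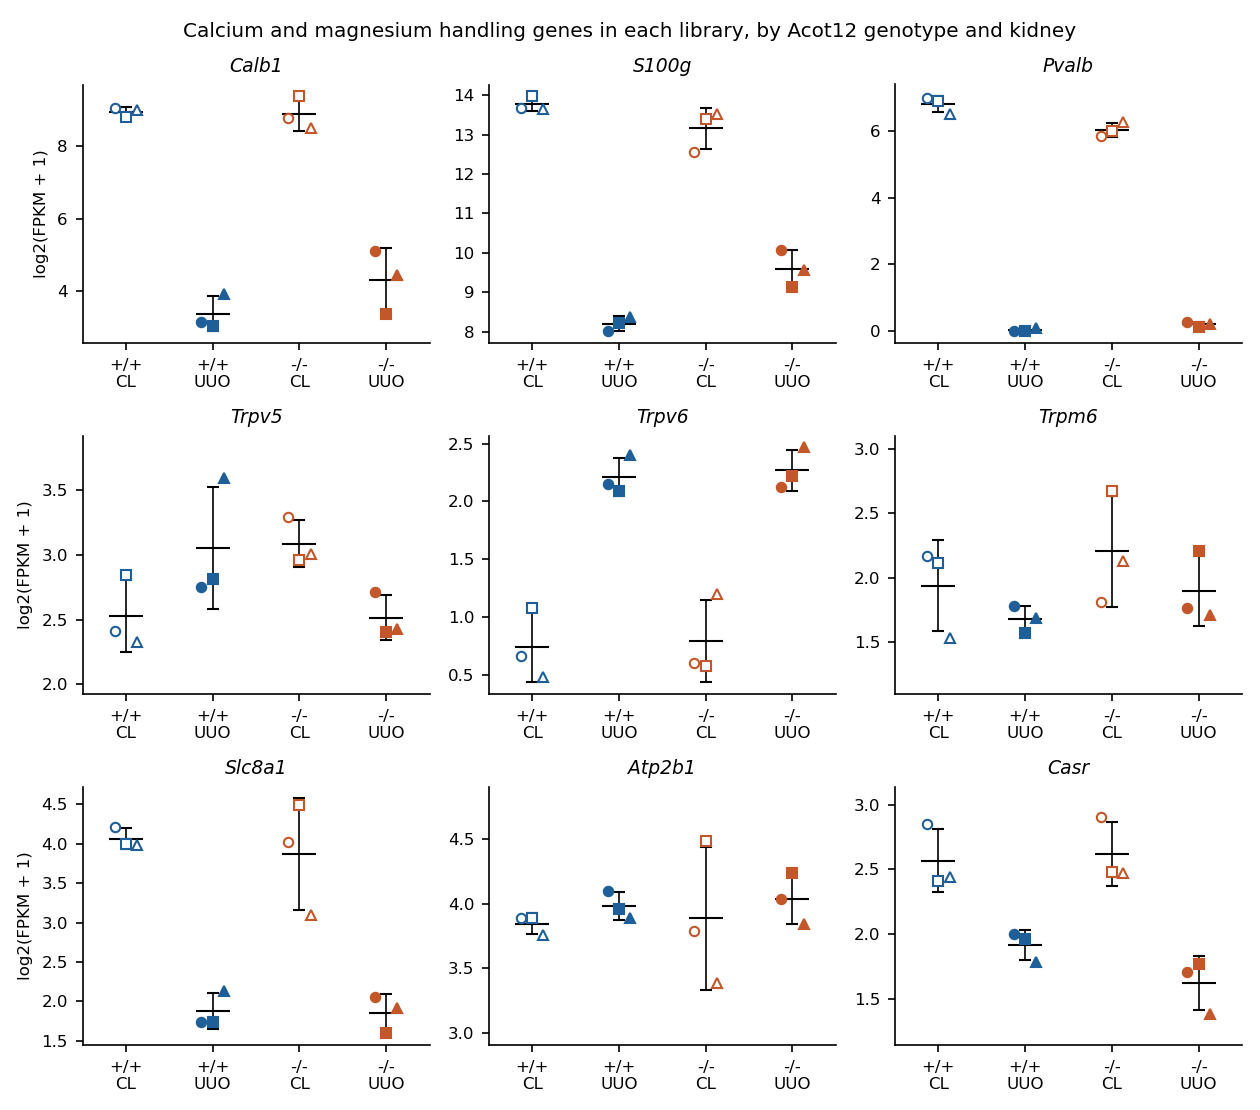
Level of each gene as log2(FPKM + 1) (y axis, a different range in each panel) in the 4 groups (x axis). Blue is Acot12+/+ and orange Acot12-/-, open symbols are CL and filled symbols UUO libraries, circles, squares and triangles are replicates 1, 2 and 3, and black lines give the mean ± SD of n = 3. Calb1, S100g and Pvalb lie far lower in every UUO library than in any CL library, Trpv6 lies higher, and Atp2b1 and Trpm6 overlap between kidneys in Acot12-/- mice.

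From CL to UUO, 6 of the 9 genes passed the threshold (adjusted p under 0.05 from limma) in Acot12+/+ kidneys, 5 lower and 1 higher, against 47.5% of all genes tested, of which 23.9% lower and 23.6% higher. In Acot12-/- kidneys 7 of the 9 passed, 6 lower and 1 higher, against 53.7% of all genes, of which 27.2% lower and 26.6% higher. Over the 9 genes the log2 difference had a median of -0.65 in Acot12+/+ mice and of -1.0 in Acot12-/- mice, and over all genes tested of 0.01 and -0.01. Since this contrast helped to choose the list, these counts are given as a description. The groups did not overlap between kidneys for 7 of the 9 genes in Acot12+/+ and for 7 of 9 in Acot12-/- mice, where 71.3% and 55.4% of all genes did not overlap. In bulk tissue, fewer cells of a type and less RNA per cell cannot be told apart.

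Calb1 (GRCm38, chr4:15881264-15908064, plus strand) encodes calbindin-D28k, the protein that buffers and carries calcium through cells of the late distal convoluted and connecting tubule. Calb1 was 527, 447 and 512 FPKM in replicates 1, 2 and 3 of Acot12+/+ CL and 7.89, 7.25 and 14.2 FPKM in Acot12+/+ UUO kidneys. It was 435, 665 and 359 FPKM in Acot12-/- CL and 33.6, 9.41 and 20.8 FPKM in Acot12-/- UUO kidneys. All 6 UUO libraries lay below all 6 CL libraries, by 50.6 times in the means in Acot12+/+ and 22.9 times in Acot12-/- mice. On log2(FPKM + 1), Calb1 was lower by -5.58 (SE 0.386) and -4.57 (SE 0.386), respectively. Replicate 2 of Acot12-/- was unlike its group, since there Calb1 was left at 1.42% of the CL level of the same replicate number, as against 7.72% and 5.80%, and 1.499 to 2.78% in Acot12+/+.

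S100g (GRCm38, chrX:162961992-162964599, minus strand) encodes calbindin-D9k, the smaller calcium carrier of the same cells. S100g was 13110, 16132 and 12994 FPKM in Acot12+/+ CL and 257, 296 and 332 FPKM in Acot12+/+ UUO kidneys. In Acot12-/- mice it was 6038, 10739 and 11804 FPKM in CL and 1083, 564 and 750 FPKM in UUO kidneys. In FPKM, every Acot12-/- CL library lay below every Acot12+/+ CL library, and every Acot12-/- UUO library above every Acot12+/+ UUO library. The transcript has only 480 bases, so its FPKM depends on the length correction of each library. The estimated length was 324 bases in replicate 2 of Acot12-/- CL (48237 fragments, depth 13860000). It was 264 bases in replicate 1 of Acot12+/+ CL (45549 fragments, depth 13160000). Per unit of depth these libraries are closer than the depth error of up to 1.2% can resolve. The simulated libraries checked the depth and not the length. The CL separation may thus depend on this correction, which was not tested. The means fell by a factor of 47.7 from CL to UUO in Acot12+/+ (log2 difference -5.57, SE 0.291) and of 11.9 in Acot12-/- kidneys (-3.57, SE 0.291). By replicate number, 1.84 to 2.55% of the CL level was left in Acot12+/+ and 5.25 to 17.9% in Acot12-/- UUO kidneys.

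Pvalb (GRCm38, chr15:78191114-78206400, minus strand) encodes parvalbumin, a calcium and magnesium binding protein of the early distal convoluted tubule that is also abundant in fast muscle. Pvalb was 127, 119 and 92.0 FPKM in Acot12+/+ CL and was listed at 0, 0 and 0.065 FPKM in Acot12+/+ UUO kidneys. In Acot12-/- mice it was 56.8, 64.3 and 76.3 FPKM in CL and 0.198, 0.081 and 0.142 FPKM in UUO kidneys. These low values stand for 0, 0 and 1 fragments in Acot12+/+ UUO and 3, 1 and 2 fragments in Acot12-/- UUO, where the CL groups held 3060 and 2069 fragments in sum. The fragments assume a length of 696 bases in every library. That length was fitted on 4 low UUO values and not on CL libraries. Per unit of depth, CL exceeded UUO by 5169 times (exact 95% interval 927 to 204233) in Acot12+/+ and 463 times (212 to 1262) in Acot12-/- kidneys. The intervals cover counting error only, and the log2(FPKM + 1) differences of -6.79 (SE 0.153) and -5.86 (SE 0.153) understate such changes. The 6 listed skeletal muscle genes summed to 1.08 to 3.45 FPKM in CL libraries, of which Mylpf made up 0.973 to 3.13 FPKM, while Myh4 was listed at 0 in all 12 libraries and Ckm was at most 0.069 FPKM. Their part in the Pvalb level was not tested.

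The sequence upstream of the start site is shown for S100g and Pvalb, members with a large fall, and for Trpv6, the member past the threshold in the other direction in both genotypes. RefSeq windows were at hand for 8 of the 9 genes (GRCm38.p6); Calb1 had no entry. The 250 bases before the annotated start are printed 5′ to 3′ on the strand of the gene, and capitals mark AGGTCA on either strand (TGACCT when read on the gene's strand), the half-site that many nuclear receptors bind and that the vitamin D receptor binds in pairs, with variants.
S100g (chrX:162964600-162964849, minus strand): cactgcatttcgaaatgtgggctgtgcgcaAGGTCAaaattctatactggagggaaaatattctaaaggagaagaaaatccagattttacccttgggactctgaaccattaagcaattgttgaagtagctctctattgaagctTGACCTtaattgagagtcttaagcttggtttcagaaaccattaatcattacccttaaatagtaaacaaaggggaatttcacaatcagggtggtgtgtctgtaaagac
Pvalb (chr15:78206401-78206650, minus strand): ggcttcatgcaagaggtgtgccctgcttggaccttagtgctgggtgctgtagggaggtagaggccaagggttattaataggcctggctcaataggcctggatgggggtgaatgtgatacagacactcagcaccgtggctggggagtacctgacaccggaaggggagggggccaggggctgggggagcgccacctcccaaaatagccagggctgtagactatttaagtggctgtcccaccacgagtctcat
Trpv6 (chr6:41636406-41636655, minus strand): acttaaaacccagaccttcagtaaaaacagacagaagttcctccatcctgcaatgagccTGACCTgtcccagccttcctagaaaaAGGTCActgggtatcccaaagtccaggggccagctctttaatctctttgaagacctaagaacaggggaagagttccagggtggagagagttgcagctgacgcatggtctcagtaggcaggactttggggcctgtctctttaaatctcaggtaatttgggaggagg
AGGTCA stood at 2 places in the S100g window, starting 220 and 107 bases before the start, and at 2 places in the Trpv6 window, 191 and 165 bases before it. It was absent from the windows of the other 6 genes with an entry, among them Pvalb and Trpv5. Of all 32851 windows of this length, 14% held it at least once and 1.36% at 2 or more places. A match is a description of the letters and was not tested as a binding site, and the gene that fell and the gene that rose both held it.

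Trpv5 (GRCm38, chr6:41652173-41680769, minus strand) and Trpv6 (chr6:41620624-41636405, minus strand) are neighbours and encode the closely related calcium entry channels, TRPV5 the main one of the distal nephron and TRPV6 best known from the gut. Their transcripts shared no run of 100 bases with each other or with another gene. Trpv5 was 4.32, 6.17 and 4.02 FPKM in Acot12+/+ CL and 5.73, 6.05 and 11.1 FPKM in Acot12+/+ UUO kidneys, which overlap. In Acot12-/- mice Trpv5 was 8.82, 6.79 and 7.06 FPKM in CL and 5.57, 4.29 and 4.39 FPKM in UUO kidneys, which do not overlap. The log2 difference was thus positive in Acot12+/+ (0.53, SE 0.225, not past the threshold) and negative in Acot12-/- kidneys (-0.57, SE 0.225). By replicate number, Trpv5 in UUO was 133, 98.0 and 277% of CL in Acot12+/+ and 63.1, 63.2 and 62.2% in Acot12-/- mice. Its side of the threshold moved with single libraries. In Acot12+/+ Trpv5 passed in separate fits without CL replicate 2 (0.69), without UUO replicate 1 (0.68), with same-numbered kidneys as a block, and with equal totals. It was 0.26 without UUO replicate 3. In Acot12-/- it did not pass with no filter, with every library set to the same total, or without replicate 1 or 3 of CL or 2 or 3 of UUO in that genotype, or replicate 1 or 3 of CL or 2 of UUO in Acot12+/+ (-0.47 to -0.61 over the left-out libraries).

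Trpv6 was the least abundant of the 9 genes in CL kidneys, at 0.581, 1.11 and 0.399 FPKM in Acot12+/+ and 0.52, 0.49 and 1.30 FPKM in Acot12-/- libraries, about 15 to 57 fragments each. In UUO kidneys it was 3.44, 3.26 and 4.28 FPKM in Acot12+/+ and 3.36, 3.65 and 4.53 FPKM in Acot12-/- libraries, about 178 to 256 fragments each. Every UUO library lay above every CL library, with means 5.26 and 5.0 times as high. The log2(FPKM + 1) difference was 1.47 in Acot12+/+ and 1.48 in Acot12-/- kidneys (SE 0.201 for both), smaller than the ratio of the means because of the pseudocount. Of the summed FPKM of both channels, Trpv6 made up 9.03 to 15.2% in Acot12+/+ and 5.57 to 15.5% in Acot12-/- libraries of CL kidneys. In UUO kidneys its share was 27.8 to 37.6% in Acot12+/+ and 37.7 to 50.8% in Acot12-/- libraries.

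Trpm6 (GRCm38, chr19:18749983-18892511, plus strand) encodes the apical magnesium channel of the distal convoluted tubule. Trpm6 was 3.51, 3.34 and 1.90 FPKM in Acot12+/+ CL and 2.43, 1.97 and 2.23 FPKM in Acot12+/+ UUO kidneys. It was 2.52, 5.36 and 3.38 FPKM in Acot12-/- CL and 2.41, 3.62 and 2.28 FPKM in Acot12-/- UUO kidneys. The groups overlapped in both genotypes, and the differences of -0.26 and -0.31 on the log2 scale (SE 0.232) did not pass the threshold. In the means, the Trpm6 level in UUO kidneys was 0.759 and 0.737 times that in CL kidneys, in libraries in which Pvalb, a product of the same segment, stood at 0 to 3 fragments.

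Slc8a1 (GRCm38, chr17:81373105-81738377, minus strand) encodes NCX1, the basolateral sodium-calcium exchanger. Slc8a1 was 17.5, 14.9 and 14.7 FPKM in Acot12+/+ CL and 2.34, 2.35 and 3.40 FPKM in Acot12+/+ UUO kidneys. In Acot12-/- mice it was 15.2, 21.4 and 7.52 FPKM in CL and 3.15, 2.02 and 2.78 FPKM in UUO kidneys. All UUO libraries lay below all CL libraries, by 5.83 and 5.55 times in the means (log2 differences -2.19 and -2.01, SE 0.283). Exons of 2 other annotated genes overlap Slc8a1, both on the other strand, and their reads were counted by a setting not given in the sources used here.

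Atp2b1 (GRCm38, chr10:98914406-99026143, plus strand) encodes PMCA1, a plasma membrane calcium pump that most cell types make. Atp2b1 was 13.8, 13.8 and 12.5 FPKM in Acot12+/+ CL and 16.1, 14.5 and 13.8 FPKM in Acot12+/+ UUO kidneys, and it was 12.8, 21.4 and 9.45 FPKM in Acot12-/- CL and 15.4, 17.8 and 13.4 FPKM in Acot12-/- UUO kidneys. In Acot12+/+ mice the lowest UUO library lay just above the highest CL library, and in Acot12-/- mice the groups overlapped. The differences of 0.14 and 0.15 on the log2 scale (SE 0.227) did not pass the threshold, so of the 2 basolateral exits the exchanger was lower in UUO kidneys and the pump was not. Without replicate 2 of Acot12-/- CL, which was the highest Atp2b1 library, the difference was 0.45 and passed.

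Casr (GRCm38, chr16:36493696-36562141, minus strand) encodes the calcium-sensing receptor, which reports the calcium level of the blood side to the tubule. Casr was 6.21, 4.33 and 4.43 FPKM in Acot12+/+ CL and 3.01, 2.90 and 2.44 FPKM in Acot12+/+ UUO kidneys. It was 6.49, 4.58 and 4.56 FPKM in Acot12-/- CL and 2.27, 2.41 and 1.602 FPKM in Acot12-/- UUO kidneys. All UUO libraries lay below all CL libraries, and the means were 1.79 and 2.49 times lower (log2 differences -0.65 and -1.0, SE 0.173).

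**Figure D2:**
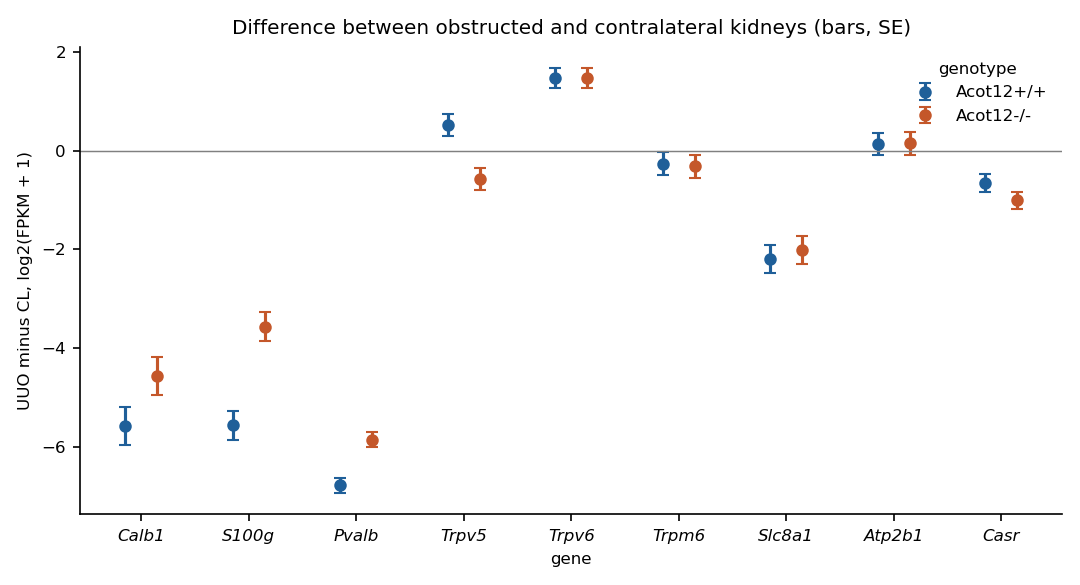
Difference between UUO and CL kidneys on log2(FPKM + 1) (y axis) for each gene (x axis) in Acot12+/+ (blue) and Acot12-/- (orange) mice, with points for the limma estimate of 3 against 3 libraries and bars for its SE. Calb1, S100g and Pvalb lie between -3.57 and -6.79, Trpv6 near 1.48, and Trpv5 on opposite sides of 0 in the 2 genotypes.

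Some of these differences depend on whether libraries are set to equal totals, because total FPKM was lower in UUO libraries. Median-ratio size factors left the counts of the 9 genes as in the reported fit. They gave 1 higher and 5 lower in Acot12+/+ and 1 higher and 6 lower in Acot12-/- kidneys, with 6268 of all genes past the threshold in Acot12+/+. With every library set to the same total, the median of all genes rose by 0.62 from CL to UUO in Acot12+/+ and by 0.46 in Acot12-/- kidneys, and 8685 genes passed in Acot12+/+, 7645 higher and 1040 lower, in place of 3129 higher and 3161 lower. Under that scaling Trpm6 turned from lower to higher in both genotypes (0.27 and 0.11) and Casr in Acot12+/+ came to -0.08, although relative to the median of all genes they stayed lower at -0.35, -0.35 and -0.70. Casr in Acot12+/+ no longer passed. Trpv5 rose to 1.16 and passed in Acot12+/+, and came to -0.10 and no longer passed in Acot12-/- kidneys, and Atp2b1 rose to 0.83 and 0.66 and passed in both. Of the 9 genes, 3 thus passed higher and 4 lower in Acot12+/+ and 2 higher and 5 lower in Acot12-/- kidneys. Calb1, S100g, Pvalb, Slc8a1 and Trpv6 kept their sign and passed the threshold under both scalings.

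The genotypes were also compared within each kidney. In UUO kidneys, 0 of the 9 genes passed the threshold between Acot12-/- and Acot12+/+ mice with limma, against 0.0151% of all genes (2 of 13243). Unadjusted p-values were under 0.05 for 3 of the 9, S100g, Calb1 and Trpv5, against 2.36% of all genes. S100g was 2.71 times as high in the mean in Acot12-/- as in Acot12+/+ UUO kidneys (log2 difference 1.39, 95% interval 0.76 to 2.02), with no overlap, at a limma p of 4.45e-04 that became 0.727 after adjustment over all genes. Calb1 was 2.17 times as high (0.94, 0.10 to 1.78), with overlapping groups, and did not pass (limma adjusted p = 1.00). Trpv5 was lower in every Acot12-/- UUO library (-0.54, -1.03 to -0.05) and did not pass (limma adjusted p = 1.00). For the other 6 genes the differences lay between -0.30 for Casr and 0.22 for Trpm6. The groups did not overlap for 4 of the 9 genes, S100g and Pvalb higher and Trpv5 and Casr lower in Acot12-/- UUO, against 12% of all genes. Pvalb there stands for 6 against 1 fragments, a ratio of 6.58 with a counting interval of 0.798 to 303, which the depth cannot tell from 1.

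In CL kidneys, 1 of the 9 genes passed, against 4.48% of all genes. Pvalb was lower in all 3 Acot12-/- CL libraries than in any Acot12+/+ CL library, with a mean 1.71 times lower (log2 difference -0.77, SE 0.153, limma adjusted p = 0.0165). The call for Pvalb was lost with a pseudocount of 0.1 (adjusted p = 0.106), when only the CL groups were fitted (0.161), and without replicate 1 (0.0764) or 2 (0.0674) of Acot12+/+ or replicate 1 of Acot12-/- CL (0.0686), the difference staying between -0.67 and -0.90. Without replicate 2 of Acot12-/- CL, the library that stood apart, Pvalb remained lower at -0.76 (limma adjusted p = 0.00976). S100g was also lower without overlap in FPKM, a separation that may depend on the length correction, by 1.48 times in the mean (-0.61, -1.25 to 0.02, limma adjusted p = 0.309). Trpv5 was higher without overlap (0.56, 0.07 to 1.05, limma adjusted p = 0.214). No other member was free of overlap, so that 3 of 9 did not overlap against 18.3% of all genes. The other 6 genes differed by -0.19 for Slc8a1 to 0.26 for Trpm6.

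Markers of other cells moved in the same CL comparison. Of the 6 macrophage markers, C1qa, Cd68 and Lyz2 passed the limma threshold lower in Acot12-/- CL, and the summed level of the list was 81.9 to 104 FPKM in Acot12+/+ and 37.0 to 66.9 FPKM in Acot12-/- CL libraries. Pecam1, Cdh5 and Emcn passed lower among 4 endothelial markers (72.4 to 127 against 22.5 to 45.4 FPKM), Pdgfrb and Tagln among 7 fibroblast and smooth muscle markers (129 to 150 against 46.5 to 78.2 FPKM), and Cd3e and Cd3g among 5 lymphocyte markers, of which 3 were tested (summed over all 5, 5.89 to 10.3 against 1.96 to 3.70 FPKM). No marker in any of these lists was at 0 in a whole group. Each of these 10 genes lost its call when only the CL groups were fitted, C1qa, Cd68, Lyz2, Cd3e and Cdh5 also without single CL libraries, and all 10 passed without replicate 2 of Acot12-/- CL. The 7 proximal tubule markers summed to 2700 to 3280 FPKM in Acot12+/+ and 3836 to 5270 FPKM in Acot12-/- CL libraries, with positive differences for all 7 (median 0.63) and none past the threshold. Of the other tubule lists none had a gene past the threshold. The distal convoluted and connecting tubule list had a median of 0.06 with 10 genes higher and 6 lower (summed levels of 719 to 902 and 844 to 900 FPKM). All 8 thick ascending limb genes had negative differences (median -0.32, 1537 to 2800 and 1320 to 1758 FPKM), as had 5 of 6 principal cell genes (median -0.17) and 3 of 6 intercalated cell genes (median 0.10). The part of these markers in the Pvalb difference was not tested.

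**Figure D3:**
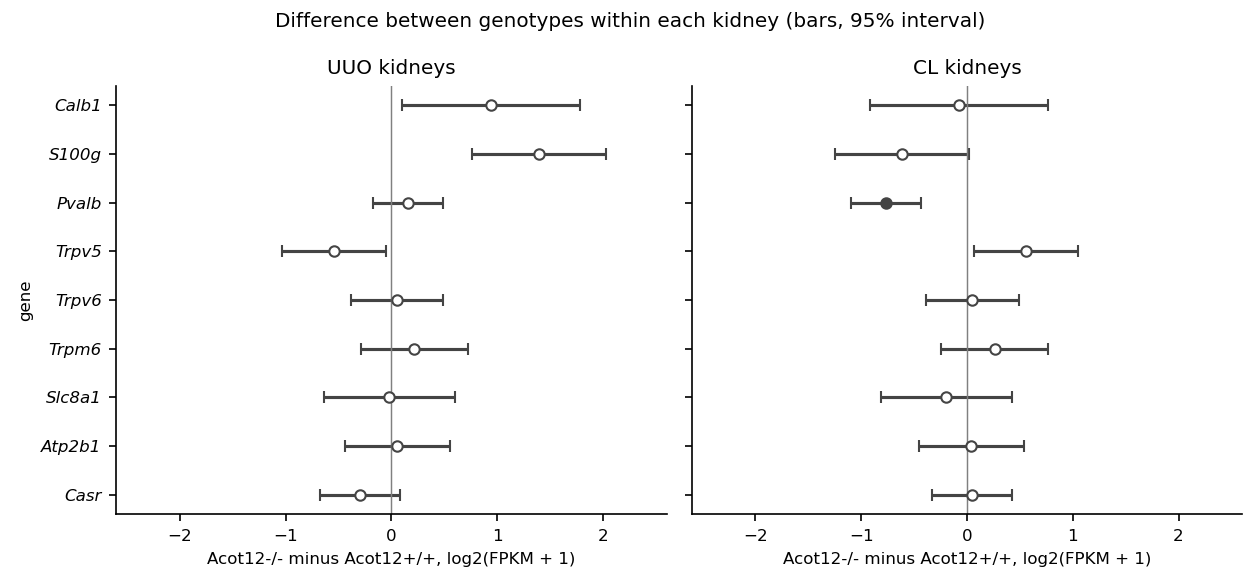
Difference between Acot12-/- and Acot12+/+ kidneys on log2(FPKM + 1) (x axis) for each gene (y axis) in UUO (left) and CL kidneys (right), 3 against 3 libraries, with bars for the 95% interval of the limma estimate. The filled point, Pvalb in CL kidneys at -0.77, is the only one past the adjusted threshold. S100g, Trpv5, Pvalb, Calb1 and Casr lie on opposite sides of 0 in the 2 kidneys.

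Whether the change from CL to UUO differed between genotypes was tested as an interaction. It shares its libraries with the contrast in which the 3 calcium-binding genes were already known to fall most, so it is not independent of the choice of genes. Without a replicate block, 0 of the 9 genes passed, against 0.106% of all genes, and unadjusted p-values were under 0.05 for S100g, Pvalb and Trpv5, against 10.5% of all genes. With genotype and replicate number as a block, since same-numbered CL and UUO libraries tended to deviate together, S100g and Pvalb passed, 2 of 9 against 1.53% of all genes. The fall of S100g was smaller in Acot12-/- mice by 2.01 on the log2 scale (SE 0.411, limma adjusted p = 0.0798, and 0.0330 with the block). The fall of Pvalb was smaller by 0.92 (SE 0.216, limma adjusted p = 0.110, and 0.0453 with the block), and by 1.77 with a pseudocount of 0.1, on UUO levels of at most 3 fragments. The 0.92 is mainly the difference between genotypes in CL kidneys (-0.77), with 0.16 from UUO kidneys. In fragments, the counting intervals of the falls overlap (927 to 204233 times in Acot12+/+ and 212 to 1262 times in Acot12-/-). Overlap of separate intervals does not test whether the falls differ. The ratio of the falls in fragments was not tested, and counting error leaves out the spread between samples. When the block was instead made by subtracting CL from UUO per replicate number, neither passed (0 of 9 genes, against 0.627% of all genes, with S100g adjusted p = 0.0802, Pvalb 0.114 by limma).

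For S100g the fall was smaller in all 3 Acot12-/- replicate numbers (-2.48, -4.25 and -3.97) than in any of Acot12+/+ (-5.29 to -5.76), and for Pvalb likewise on this scale (-5.59 to -6.08 against -6.45 to -7.00). How many of all genes separate in this way was not counted. Leaving out replicate 2 or 3 of Acot12-/- CL brought both genes past the threshold without a block, at limma adjusted p of 0.0269 and 0.0334 for S100g and 0.0336 and 0.0396 for Pvalb. These were the only 2 of 12 left-out fits in which either passed. Of all 13214 genes tested there, 899 and 153 passed, against 14 in the full fit. Over all alternatives the limma adjusted p reached 0.256 for S100g and 0.304 for Pvalb. Calb1 did not separate in this way: its replicate 2 in Acot12-/- fell by -6.00, more than any Acot12+/+ replicate, and its interaction was 1.01 (SE 0.546, limma adjusted p = 0.583). Trpv5 went the other way, with an interaction of -1.10 (SE 0.319, limma adjusted p = 0.176, and 0.0908 with the block) and changes of -0.56 to -0.58 in Acot12-/- against -0.03 to 1.27 in Acot12+/+ mice. The interactions of the other 5 genes lay between -0.35 for Casr and 0.18 for Slc8a1.

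**Figure D4:**
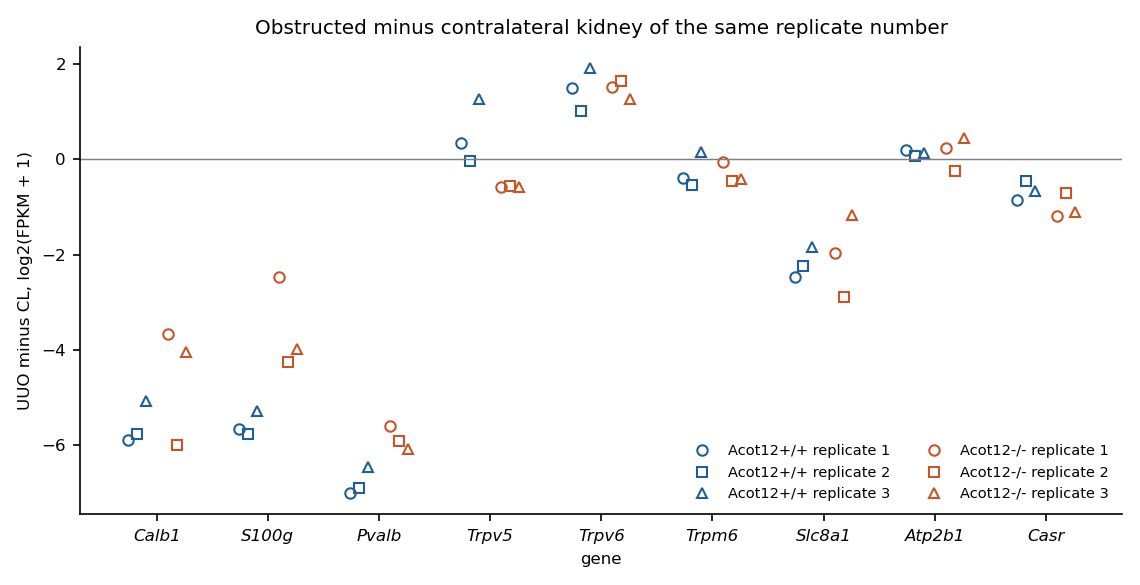
UUO minus CL on log2(FPKM + 1) (y axis) for each gene (x axis), 1 point for each replicate number, with Acot12+/+ in blue and Acot12-/- in orange and circles, squares and triangles for replicates 1, 2 and 3. S100g, Pvalb and Trpv5 show no overlap between genotypes, whereas for Calb1 replicate 2 of Acot12-/- lies at -6.00, below all Acot12+/+ points. The share of all genes without such overlap was not counted.

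Hormones and regulators of calcium transport were read from a list of 17 genes, none of them a member. From CL to UUO, 4 passed the limma threshold higher and 7 lower in Acot12+/+ (median -0.60) and 2 higher and 7 lower in Acot12-/- kidneys (median -0.57). The largest falls in Acot12+/+ were Klk1, tissue kallikrein made by the connecting tubule (-4.19, SE 0.316), and Kl, klotho, a cofactor of FGF23 signalling that also acts on TRPV5 (-2.72, SE 0.310). The largest rises were Anxa2, an annexin that helps bring TRPV5 to the membrane (2.54, SE 0.194), and Cyp24a1, which degrades active vitamin D (1.39, SE 0.443, with overlapping groups). Vdr, the vitamin D receptor, was lower by -0.77 and -0.95 (SE 0.165, limma adjusted p = 0.00238 and 4.58e-04), whereas Pth1r, the parathyroid hormone receptor, was at -0.60 and -0.72 (SE 0.417) and did not pass (limma adjusted p = 0.257 and 0.164). With every library at the same total the list turned to 6 higher and 3 lower in Acot12+/+ and 5 higher and 2 lower in Acot12-/- kidneys.

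Both vitamin D enzymes passed between genotypes in CL kidneys. Cyp27b1, which makes active vitamin D, was 1.19, 1.96 and 3.69 FPKM in Acot12+/+ CL and 28.5, 8.37 and 15.4 FPKM in Acot12-/- CL kidneys, with no overlap (log2 difference 2.41, SE 0.372, limma adjusted p = 0.00646). Cyp24a1 was 2.73, 4.21 and 12.4 FPKM against 19.0, 36.5 and 23.5 FPKM, again with no overlap (2.05, SE 0.443, limma adjusted p = 0.0243). Both lost the call when only the CL groups were fitted (Cyp27b1 adjusted p = 0.0761), and Cyp24a1 also without replicate 1 or 2 of Acot12+/+ or replicate 1 of Acot12-/- CL, with adjusted p of up to 0.107 over the alternatives. In UUO kidneys neither passed, at 0.53 for Cyp27b1 and 0.29 for Cyp24a1. Anxa2 was lower in Acot12-/- CL (-0.83, SE 0.194, limma adjusted p = 0.0324), a call kept in 12 of 20 alternatives and lost, among others, without any 1 of the Acot12+/+ CL libraries. Vdr, Kl, Klk1 and Pth1r did not pass between genotypes in either kidney.

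Of 16 tested genes on the magnesium list, 2 passed the limma threshold higher and 7 lower from CL to UUO in Acot12+/+ (median -0.30), and 2 higher and 9 lower in Acot12-/- kidneys (median -0.76). Egf, whose product raises TRPM6 activity, fell by 4.85 and 4.40 on the log2 scale (SE 0.506, limma adjusted p = 2.63e-05 and 2.45e-05), and Pcbd1, an enzyme of tetrahydrobiopterin recycling, fell by 2.07 and 2.09. Trpm7, the widely made relative of Trpm6, was lower by -0.81 and -1.06 (SE 0.280, limma adjusted p = 0.0311 and 0.00679). The rises were Slc41a1 (0.68 and 0.45) and Slc41a3 (0.43 and 0.53), magnesium carriers of the SLC41 family. With every library at the same total, 5 passed higher and 4 lower in each genotype. No gene of this list passed between genotypes.

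Of 13 relatives of the 9 genes, Trpv2, Trpv4, Slc8b1 and Atp2b4 passed the filter on low values. Of the others, Atp2b2 was present in all 12 libraries at 0.063 to 0.536 FPKM. Trpv2, a cation channel of the same family (0.88 and 1.20), and Slc8b1, the mitochondrial sodium-calcium exchanger (0.56 and 0.81), passed higher in UUO in both genotypes, and Trpv4 and Atp2b4 did not pass. Calb2, which encodes calretinin, was listed at 0 in all 12 libraries. Among 12 genes of intracellular calcium stores, 5 passed higher and 1 lower in Acot12+/+ (median 0.29) and 3 higher and 4 lower in Acot12-/- kidneys (median -0.12). Itpr3 rose by 1.67 and 1.80 and Itpr1 was lower by -0.78 and -0.92, both inositol trisphosphate receptors, and Orai3, a store-operated calcium channel, was 0.55 and 0.49 higher (limma adjusted p = 0.0405 and 0.0583). With every library at the same total, 7 passed higher in Acot12+/+ and 5 in Acot12-/- kidneys (medians 0.86 and 0.33) and 0 lower in either, so that Itpr1 did not pass. Mcu, the mitochondrial calcium uniporter, passed between genotypes in CL kidneys (0.50, SE 0.129, limma adjusted p = 0.0494), but in only 5 of 20 alternatives.

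Many other genes of the same tubule segments were lower in UUO kidneys. Of 16 genes of the distal convoluted and connecting tubule, 11 passed the limma threshold lower and 0 higher in Acot12+/+ (median -0.96) and 12 lower and 0 higher in Acot12-/- kidneys (median -0.96). The largest falls in Acot12+/+ were Kcnj1, the ROMK potassium channel (-2.06, SE 0.304), and Slc12a3 (-1.74, SE 0.212), and Slc12a3 was at -1.78 in Acot12-/- kidneys. The summed level of the list went from 719 to 902 FPKM to 351 to 414 FPKM in Acot12+/+ and from 844 to 900 FPKM to 298 to 451 FPKM in Acot12-/- mice. With every library at the same total, 5 and 7 of the 16 passed lower and 0 higher (medians -0.26 and -0.43). Of 8 thick ascending limb genes, 5 passed lower and 1 higher in each genotype (medians -1.30 and -1.19), led by Slc12a1, the NKCC2 cotransporter (-2.62), and Cldn10 (-2.11), with Cldn14, a claudin that limits calcium uptake there, higher (1.21 and 1.11). With every library at the same total, 3 passed lower and 1 higher in Acot12+/+ and 3 lower and 3 higher in Acot12-/- kidneys.

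The remaining cell type lists moved as follows from CL to UUO in Acot12+/+ and Acot12-/- kidneys. Principal cell genes passed lower for 5 of 6, led by Aqp4 (-2.26) and Aqp2 (-1.91), and for 2 of 6 with 1 higher. Intercalated cell genes passed lower for 4 of 6 in each genotype, led by Atp6v1g3 (-2.42) and Slc4a1 (-2.34), and proximal tubule genes for 6 and 7 of 7, led by Slc22a6 (-2.78) and Lrp2 (-2.40). All 5 injured tubule genes passed higher in both genotypes, with medians of 4.85 and 5.33, led by Havcr1 (7.33) and Krt20 (5.37). Macrophage genes passed higher for 5 and 6 of 6 (summed levels of 431 to 520 and 476 to 569 FPKM in UUO libraries), led by Lyz2 (3.13) and Itgam (2.30). Lymphocyte genes passed higher for 2 of 3 in each genotype, Cd3g and Cd3e, and fibroblast and smooth muscle genes for 4 and 6 of 7, led by Col1a1 (2.12) and Tagln (1.44). Endothelial genes passed 1 higher and 2 lower of 4 in Acot12+/+ and 3 higher in Acot12-/- kidneys, with Cdh5 the rise and Emcn and Kdr the falls in Acot12+/+. With every library at the same total, endothelial genes passed 2 higher and 0 lower in Acot12+/+, and the other tubule segments kept negative medians and the injury, macrophage, lymphocyte and fibroblast lists positive ones. Of 6 skeletal muscle genes only Mylpf passed the filter, and it did not pass the threshold. The part of these lists in the levels of the 9 genes was not tested.

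**Figure D5:**
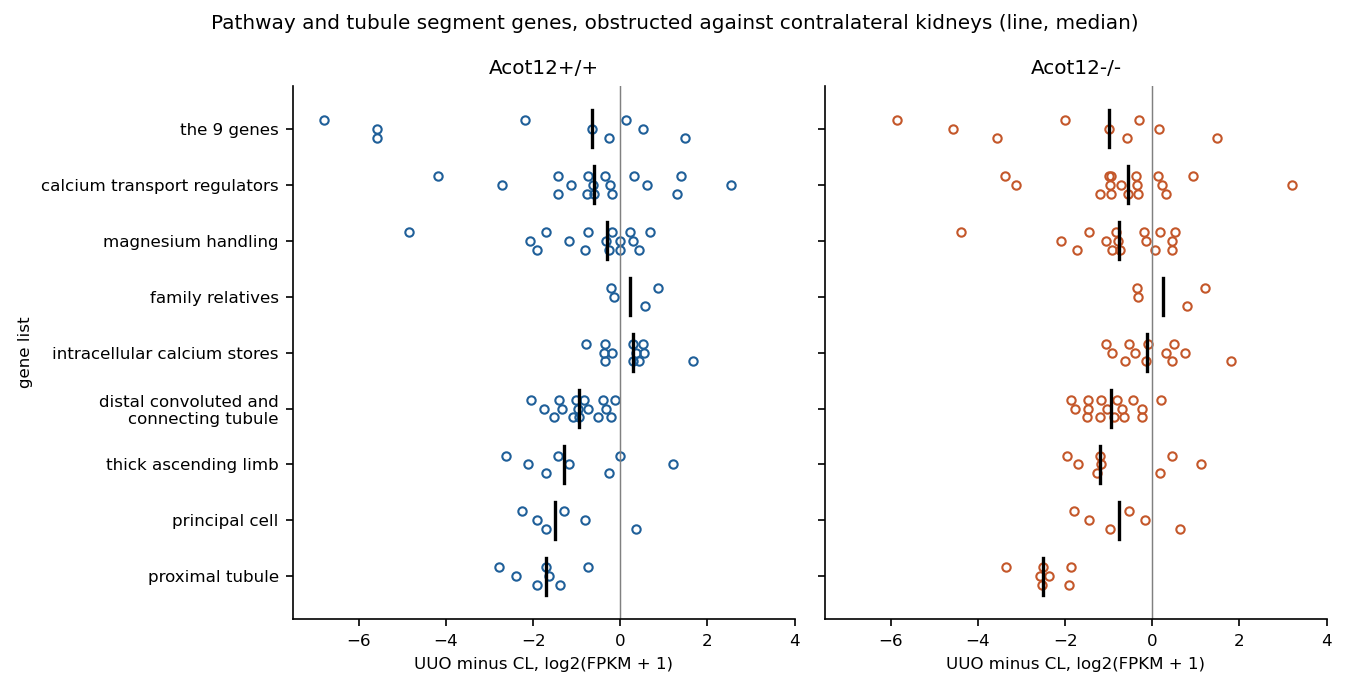
UUO minus CL on log2(FPKM + 1) (x axis) for the 9 genes and 8 gene lists (y axis) in Acot12+/+ (left, blue) and Acot12-/- kidneys (right, orange), 1 open circle for each tested gene, spread vertically only for legibility, and a black line for the median of each list. Most tubule genes lie between 0 and -3, and Calb1, S100g and Pvalb lie farther left together with Egf and Klk1.

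The genes most like each member over the 12 libraries were found from the root mean square difference of centred log2(FPKM + 1) values, a description in which all genes share the same libraries. Calb1 was most like Egf (0.403), then Gpx6 and Slc22a22, against its own spread of 2.597. Egf went from a mean of 129 FPKM in Acot12+/+ CL to 3.905 FPKM in Acot12+/+ UUO and from 160 to 7.14 FPKM in Acot12-/- mice. S100g was most like Klk1 (0.611), Gpx6 and Wfdc15b, against a spread of 2.37. Klk1 went from 3873 to 211 FPKM and from 3207 to 318 FPKM. Pvalb was most like Egf (1.14), Gpx6 and Gm6300, but no gene followed it closely against its spread of 3.18. Slc8a1 was most like Ranbp3l (0.145), Reps2 and Hibch, Trpv6 like A4galt (0.146), Pmepa1 and Mmp23, and Casr like Trappc10 (0.147), Arl1 and Gpld1. For the genes that changed little, Trpv5 was nearest to Pus7 (0.245), Susd6 and Stim1, Trpm6 to Ikzf5 (0.144), Vav3 and Rcor3, and Atp2b1 to Rapgef6 (0.0741), Rsbn1l and Zfp451, at spreads of 0.369, 0.317 and 0.258.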

How the data were processed

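RNA was isolated from kidney cortex and sequenced with a strand-specific kit (NEBNext Ultra II Directional) in 12 libraries, 3 for each of 4 groups. The deposited values are FPKM per gene, made by the authors' sequencing service. The submitters' processing notes name edgeR and mm10, and the aligner, the counting setting and versions are not given in the sources used here. No counts or test columns were used.

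The depth used in the FPKM, which may be a normalised size, was recovered from the steps of low values. The error was at most 1.2% on 4 simulated libraries, and intervals from fragments cover counting error only. Genes with at least 1 FPKM in at least 3 libraries were kept, and 28 genes listed at 0 beside at least 10 FPKM in the same group were left out, which left 13243. A model of the 4 group means was fitted to log2(FPKM + 1) with limma 3.58.1 in R 4.3.3 (variance trend, two-sided, Benjamini-Hochberg adjustment over all genes, threshold 0.05). Fold changes on this scale understate changes of low genes. The fit was tested on simulated data.

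The labels give CL and UUO kidneys of a genotype the same replicate numbers, and same-numbered libraries tended to deviate together (r of 0.134 to 0.364 for all 6 pairs, over genes). Pairs of different number within a genotype had r of -0.363 to 0.139, so the ranges overlap slightly. A fit with genotype and number as a block (consensus correlation 0.208) is given where it changed a call. The 9 genes and all gene lists were chosen with earlier results of these data known. The genes named from a list are those past the threshold between genotypes, the 2 largest rises and falls from CL to UUO in Acot12+/+ kidneys, and Slc12a3, Egf, Kl, Vdr, Pth1r, Klk1 and Trpm7 in any case. Calb2, Slc12a3 in Acot12-/-, Trpv4, Atp2b4, Mylpf, Ckm, Myh4 and Atp2b2 were named after their values were seen. The podocyte list is not reported here. Alternatives were a pseudocount of 0.1, no filter, 2 other scalings, no variance trend, only the groups compared, 2 forms of block, and leaving out each library.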

Additional observations from a re-analysis of the deposited data

Results flagged for a closer look

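The interaction of genotype and UUO passed for 2 of the 9 genes with genotype and replicate number as a block, against 1.53% of all genes. This block was fitted with a consensus correlation. The interaction shares its libraries with the contrast on which the genes were selected. With the block made as a difference per replicate number, 0 of 9 passed, against 0.627% of all genes (limma adjusted p = 0.0802 for S100g and 0.114 for Pvalb). S100g fell less in Acot12-/- kidneys by 2.01 on the log2 scale (limma adjusted p = 0.0330 with the consensus block, 0.0798 without). Pvalb fell less by 0.92 on log2(FPKM + 1) (limma adjusted p = 0.0453 with the consensus block, 0.110 without). That value is mainly the difference in CL kidneys (-0.77). In fragments, the counting intervals of the falls overlap (927 to 204233 times in Acot12+/+ and 212 to 1262 times in Acot12-/-). Such overlap does not test whether the falls differ, and their ratio in fragments was not tested. Each gene showed the smaller fall in 3 of 3 Acot12-/- replicate numbers, a separation that was not counted over all genes. In CL kidneys S100g was 9527 ± 3068 FPKM (SD, n = 3) in Acot12-/- against 14079 ± 1779 in Acot12+/+, which did not pass (limma adjusted p = 0.309, and 0.727 for the UUO kidneys). Pvalb was 65.8 ± 9.86 against 113 ± 18.4 FPKM in CL kidneys, and in UUO kidneys 6 against 1 fragments.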

How the results depend on the processing

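The number of the 9 genes past the threshold between genotypes in CL kidneys, 1 in the reported fit, was 0 with a pseudocount of 0.1 and with only the groups compared, and 0 to 1 when single libraries were left out. For the interaction, 0 in the reported fit, it was 2 with the replicate block as a consensus correlation, 0 with the block as a difference per replicate number and 0 to 2 without single libraries. The consensus block changed no other call of the 9 genes between genotypes. Small differences changed sign without passing the threshold. With equal totals, which moved the median of all genes by -0.15 in the UUO comparison of genotypes and by -0.17 in the interaction, these were Trpv6 (-0.0859) and Atp2b1 (-0.11) between genotypes in UUO and Trpv6 (-0.14) and Atp2b1 (-0.16) in the interaction, and with a pseudocount of 0.1 the interaction of Trpv6 (-0.0383). Without single libraries, the UUO differences ran from -0.0446 to 0.15 for Trpv6, -0.12 to 0.11 for Slc8a1 and -0.0429 to 0.15 for Atp2b1. Those in CL ran from -0.32 to 0.12 for Calb1, -0.15 to 0.22 for Trpv6, -0.50 to 0.19 for Slc8a1, -0.26 to 0.29 for Atp2b1 and -0.0907 to 0.19 for Casr. The interactions ran from -0.17 to 0.21 for Trpv6, -0.24 to 0.18 for Trpm6, -0.21 to 0.49 for Slc8a1 and -0.23 to 0.31 for Atp2b1. Over all genes, 593 passed between genotypes in CL, against 1 with only the groups compared, 326 with equal totals, 187 without replicate 1 and 2918 without replicate 2 of Acot12-/- CL. The interaction count of 14 became 203 and 83 with the 2 blocks, 0 with no filter or equal totals, and 899 without replicate 2 of Acot12-/- CL. The cause was not tested. Depth limits Pvalb in UUO kidneys, at 0 to 3 fragments, and Trpv6 in CL kidneys.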
